A study of Sus scrofa with 96 samples.

Results

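Of 25322 Ensembl pig genes counted, 6 made up the set of testis transcripts that were depleted in total RNA libraries. They were selected on the counts themselves. The median log2(CPM + 0.5) of total RNA testes had to lie at least 2 below that of stranded mRNA testes in the low BT group and again in the medium BT group, and the median level over all stranded mRNA testes had to be 50 CPM or more. CPM scales the count of a gene by the sum over all genes of the library, as counts per 1e6 reads on genes. Libraries with under 5000 genes counted were skipped, and the lowest identifier numbers (2 to 6) and a later run of identifiers were left out. A total of 3825 genes passed the minimum level. A name table paired 11804 of the 25322 identifiers with a symbol, and 1 of the 6 members had one, SPATC1. The other 5 members were ENSSSCG00000025162, ENSSSCG00000008552, ENSSSCG00000022704, ENSSSCG00000029052 and ENSSSCG00000011995, and they are referred to by these identifiers.

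The libraries came from liver and testis of 48 non-castrated Danish Landrace pigs, in 3 groups of 16 pigs that differed in genetic merit of boar taint (BT), an off-odour of pork from entire males, and were low, medium or high BT. Each pig gave 1 liver and 1 testis library, so the 96 libraries hold no repeat of a tissue within a pig. In testis, low BT had 7 stranded mRNA libraries of batch 1 and 9 total RNA libraries of batch 3, of which 1 was skipped. Medium BT had 7 stranded mRNA libraries of batch 1, 6 of batch 2 and 3 total RNA libraries of batch 3. High BT had 14 stranded mRNA libraries of batch 2 and 2 total RNA libraries of batch 3. In liver, 46 libraries were stranded mRNA of batch 1 and 2 were total RNA of batch 3, 1 of low and 1 of high BT. The study's methods assigned the kit by RNA integrity, with the total RNA kit given to samples of lower integrity, and no batch held both kits. Kit, batch 3 and RNA integrity therefore cannot be told apart in any comparison of kits, and "kit" below stands for all of them. Testis was sampled after the carcass had been kept cold, whereas liver was sampled at once, and some pigs were half-sibs.

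A stranded mRNA kit pulls RNA out by its poly(A) tail, whereas a total RNA kit removes ribosomal RNA and keeps RNA with or without such a tail. The adult testis consists to a large part of germ cells, and round and elongating spermatids make many transcripts that no other tissue makes and that are stored, with regulated poly(A) tails, until the protein is needed. SPATC1 encodes speriolin, a centrosomal protein of male germ cells. What the other 5 members encode is not given here.

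Reads on genes numbered 4881825 to 18045966 in the 34 stranded mRNA testes and 3689243 to 8263479 in the 13 total RNA testes that were kept. The skipped testis of low BT held 379942 reads on 940 genes, and all 6 members were at 0 in it, which at that depth allows up to 7.90 CPM. Of uniquely aligned reads, 62.6% to 74.7% were assigned to a gene in stranded mRNA testes and 30.1% to 59.7% in total RNA testes. The testis library of pig 8308 (medium BT, stranded mRNA, batch 1) stood apart. The summed level of 6 germ cell markers was 530.4 CPM in it and 14029 to 32343 CPM in the other 33 stranded mRNA testes, with none of the 6 at 0 in it. The summed level of 3 Leydig cell markers was 57.9 CPM in it and 1581 to 16194 CPM in the others. That of 4 Sertoli cell markers was 838.5 CPM in it and 868.7 to 3263 CPM in the others. These 4 also summed to 1823 to 4166 CPM in stranded mRNA livers. In the library of pig 8308, 4 liver markers summed to 286.4 CPM, against 70.0 to 654.2 CPM in the others. HBB, a chain of haemoglobin, was at 21625 CPM in it and at 5.09 to 436.0 CPM in the others. In the 46 stranded mRNA livers the germ cell markers summed to at most 26.0 CPM and the liver markers to at least 54864 CPM. The comparisons within stranded mRNA testes that hold pig 8308 are given with and without it. The summed level of the germ cell markers had a median of 14137 CPM (6705 to 18826) in total RNA testes. In the 33 stranded mRNA testes the median was 20008 CPM, and the ranges overlapped. In high BT, 2 of these 6 markers were called lower in total RNA, where 22.1% of all genes tested were. Their part in the kit differences was not tested, and in whole tissue fewer cells of a type and less RNA per cell cannot be told apart.

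The members fell into an abundant transcript found in both tissues and 5 transcripts of lower level that were close to absent from liver. ENSSSCG00000025162 had a median of 4054 CPM in stranded mRNA testes (lowest 479.2, highest 7808, n = 34) and 83.2 CPM in total RNA testes (lowest 32.2, highest 1982, n = 13). The ranges overlapped because of 1 total RNA testis, which was above 3 stranded mRNA testes. Pig 2111 (medium BT) had 1982 CPM in its total RNA library, whereas the next highest total RNA testis, of pig 1314 (low BT), had 269.4 CPM. Pigs 9304 and 9328 (medium BT, batch 2) had 479.2 and 939.3 CPM in their stranded mRNA libraries, and pig 9129 (high BT) had 1934 CPM. The libraries of pigs 9304 and 9328 had 153.2 and 206.7 CPM of ENSSSCG00000008552 and were not low in the other members.

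ENSSSCG00000008552 had a median of 152.3 CPM in stranded mRNA testes and 29.3 CPM in total RNA testes, where it ranged from 17.7 to 48.4 CPM. ENSSSCG00000022704 had medians of 140.7 and 25.8 CPM, with total RNA testes at 15.7 to 44.8 CPM. ENSSSCG00000029052 had medians of 134.2 and 20.4 CPM, with total RNA testes at 8.16 to 30.5 CPM. For each of these transcripts every total RNA testis was below every stranded mRNA testis other than that of pig 8308. The low and medium BT testes among them had served to choose the members, so this separation is a description. The share of all genes separated in this way is not given. ENSSSCG00000011995 had medians of 99.6 and 21.8 CPM, with total RNA testes at 11.7 to 30.7 CPM. SPATC1 had medians of 98.2 and 21.4 CPM, with total RNA testes at 11.5 to 29.3 CPM. Both were separated in the same way, and the smallest gap among the 5 was for ENSSSCG00000022704, whose lowest stranded mRNA testis without pig 8308 (76.3 CPM) was 1.70 times its highest total RNA testis. The lowest count of any of these 5 in a total RNA testis was 51 reads, and that of ENSSSCG00000025162 was 224 reads.

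**Figure D1:**
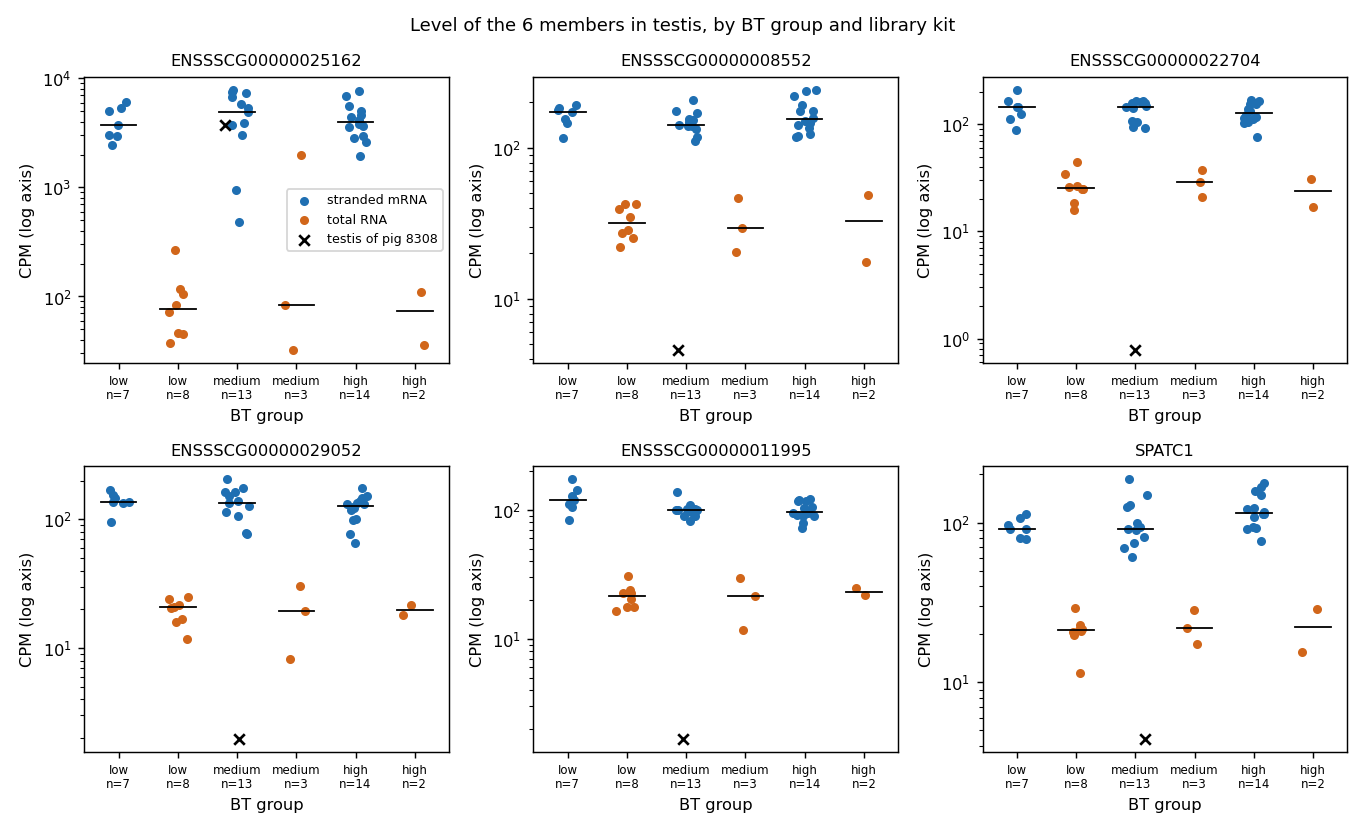
CPM of each member (log axis) in the 47 testes that were kept, by BT group, with stranded mRNA libraries in blue, total RNA libraries in orange, pig 8308 as a cross and group medians as lines. Total RNA testes lie below the stranded mRNA testes in all 3 BT groups, except that pig 2111 reaches 1982 CPM of ENSSSCG00000025162 and that pig 8308 lies below the total RNA testes for the other 5 members.

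The differences used to choose the members were -5.59 in low BT and -5.87 in medium BT for ENSSSCG00000025162, on the log2 scale. For the other 5 they were between -2.70 and -2.09 in low BT and between -2.76 and -2.02 in medium BT. SPATC1 lay closest to the limit, with -2.09 and -2.02. Just outside it lay CIMAP1A, which encodes a protein of the sperm tail, with -2.05 in low BT, -1.99 in medium BT and a median of 59.8 CPM. CATSPER1, a subunit of the sperm calcium channel, had -2.28 and -1.78. ENSSSCG00000009264 met both differences but had a median of 47.6 CPM (-2.20 in low BT), and BPIFA2 met them with -2.78 and -2.69 at 31.8 CPM. ENSSSCG00000025162 thus lay far from the other 5 members, which sat at the end of a continuum. Of the 3825 genes at 50 CPM or more, 331, members included, had differences of -1 or less in both BT groups.

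Membership of the 5 lower transcripts depended on the scaling and on the 3 total RNA testes of medium BT. With TMM effective library sizes only ENSSSCG00000025162 and ENSSSCG00000029052 met the rule, the medium BT differences of the other 4 being between -1.98 and -1.79. Without pig 2111, 3 of the 6 members met the rule, and ENSSSCG00000008552 (-1.93), ENSSSCG00000011995 (-1.95) and SPATC1 (-1.84) fell short in medium BT.

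The high BT testes took no part in the kit differences of the rule, although their stranded mRNA libraries counted towards the minimum level, and they served to measure the kit difference anew. ENSSSCG00000025162 was at 110.8 CPM (916 reads) in the total RNA testis of pig 1306 and at 35.7 CPM (275 reads) in that of pig 1331. In the 14 stranded mRNA testes of high BT it ranged from 1934 to 7736 CPM with a median of 3993 CPM. The total RNA libraries were thus below the whole range of the others. The log2 change, total RNA minus stranded mRNA, was -5.94 (SE 0.91, limma adjusted p = 1.01e-06). It was the lowest log2 change of the 15365 genes tested.

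ENSSSCG00000008552 was at 17.7 and 48.4 CPM in the total RNA testes of pigs 1306 and 1331 and at 118.1 to 241.1 CPM (median 154.8) in stranded mRNA testes of high BT. Its log2 change was -2.50 (SE 0.33, limma adjusted p = 3.76e-08). It was the member on which these 2 pigs differed most after ENSSSCG00000025162, and in the opposite order. ENSSSCG00000022704 was at 16.9 and 30.8 CPM against 76.3 to 168.6 CPM (median 127.5), a log2 change of -2.52 (SE 0.39, limma adjusted p = 1.41e-06). ENSSSCG00000029052 was at 18.2 and 21.7 CPM against 65.1 to 174.3 CPM (median 127.7), a log2 change of -2.63 (SE 0.41, limma adjusted p = 1.25e-06). The 2 total RNA testes were close to each other for this transcript.

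ENSSSCG00000011995 was at 21.8 and 24.7 CPM against 72.4 to 120.3 CPM (median 95.8), a log2 change of -2.09 (SE 0.28, limma adjusted p = 8.91e-08). It had the smallest change of the 6. SPATC1, the speriolin gene, was at 15.5 and 28.7 CPM against 76.3 to 177.8 CPM (median 115.3), a log2 change of -2.51 (SE 0.37, limma adjusted p = 5.02e-07). Groups did not overlap for any of the 6 members.

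In high BT 6 of 6 members were thus lower in total RNA, where 22.1% of all 15365 genes tested were called lower. All 6 had every total RNA library below every stranded mRNA library, as did 22.3% of all genes tested. Both shares are over all genes of mean count above 5. The members also had to reach 50 CPM in stranded mRNA testes, those of high BT among them. The shares are thus not matched to the members in level, and those over genes at 50 CPM or more are not given. The median log2 change of the members was -2.51, and that of all genes tested was -0.18. With TMM factors before voom the median of all genes moved to 0.01 and that of the members to -2.31, with 6 of 6 still called. The split of all calls was 3390 lower and 2622 higher in the first fit and 2530 lower and 3680 higher with TMM factors. Only 2 total RNA testes stood behind these values. Without pig 1306 the changes of ENSSSCG00000025162 and ENSSSCG00000008552 were -6.75 and -1.77, and without pig 1331 they were -5.12 and -3.22, while those of the other 4 stayed between -2.95 and -1.999. All 6 remained called under each of these.

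**Figure D2:**
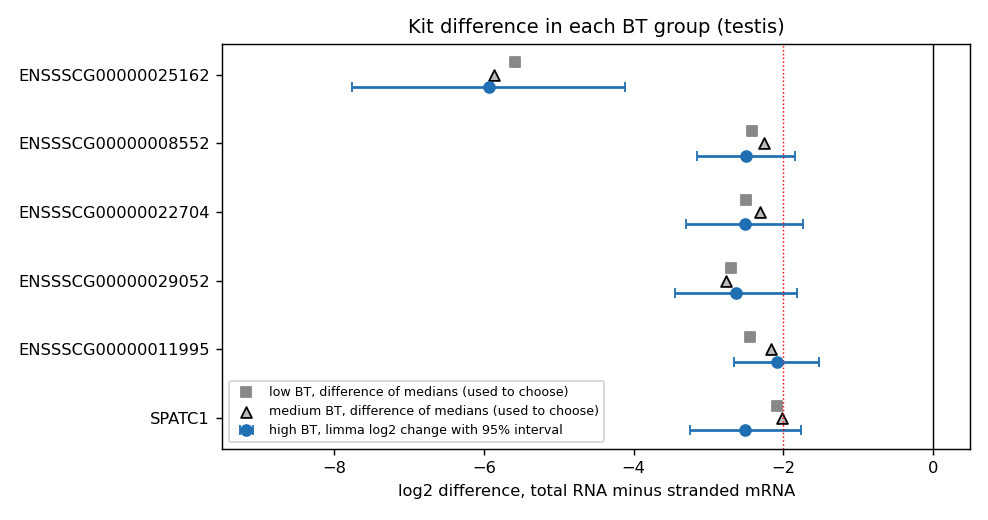
Log2 difference between total RNA and stranded mRNA testes for each member, as differences of medians in low BT (squares) and medium BT (triangles), which chose the members, and as the limma log2 change in high BT (circles, bars are 95% intervals, 2 against 14 libraries). The red dotted line marks the limit of -2, and the high BT changes run from -5.94 to -2.09 with no interval reaching 0.

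Summed, the 6 members took 0.492% ± 0.156 (SD, n = 14) of the reads on genes in stranded mRNA testes of high BT and 0.0195% ± 0.0008 (SD, n = 2) in total RNA testes of high BT. The difference was -0.473 percentage points (exact permutation test, two-sided, p = 0.0167, the smallest p that 2 against 14 libraries allow). Each member alone had every total RNA library below every stranded mRNA library, as did 22.3% of all genes tested. The sum therefore had to reach this smallest p, with or without ENSSSCG00000025162, and the p adds no support. Most of the difference was ENSSSCG00000025162. Without it the shares were 0.0641% ± 0.0096 (SD, n = 14) and 0.0122% ± 0.0045 (SD, n = 2), and the exact permutation p was again 0.0167.

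Liver, which the rule did not use, separated the members. ENSSSCG00000025162 was more abundant there than in testis within the stranded mRNA kit, with a median of 9283 CPM (lowest 3846, highest 19558, n = 46). The ranges of the tissues overlapped, and the difference between them was not tested. The total RNA livers had 101.2 CPM (391 reads, exact 95% binomial interval 91.4 to 111.7) in pig 1306 and 480.7 CPM (1945 reads, interval 459.6 to 502.5) in pig 3109. These intervals cover counting error only. Both livers were below every stranded mRNA liver. That of pig 1306 was among the total RNA testes, whereas that of pig 3109 was above 12 of the 13 (32.2 to 269.4 CPM) and below that of pig 2111.

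The log2 change of ENSSSCG00000025162 in liver was -5.55 (SE 0.30, limma adjusted p = 1.62e-21), where 16.6% of the 12225 genes tested were called lower. Without pig 1306 it was -4.45 and without pig 3109 it was -6.63. The change in high BT testis minus that in liver was -0.53 (95% interval -2.23 to 1.17, limma adjusted p = 0.712), so a difference between the tissues was not detectable with 2 total RNA libraries in each. Of the 11418 genes tested for such a difference, 20.2% were called, 1928 lower and 383 higher in testis, or 1500 and 1038 with TMM factors.

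The other 5 members were not tested in liver because they were under the minimum mean count of 5. Their highest count in any stranded mRNA liver was 1 to 3 reads, and 2 to 9 of the 46 livers had any read. In the total RNA livers all but ENSSSCG00000022704, with 1 read in pig 3109, had no read, which allows up to 0.741 to 0.776 CPM. These 5 were also the members near 0 in the testis of pig 8308. There ENSSSCG00000022704 had 8 reads (0.780 CPM, exact 95% binomial interval 0.337 to 1.54), and ENSSSCG00000008552, the highest of the 5, had 47 reads (4.58 CPM, interval 3.37 to 6.10). ENSSSCG00000025162 was at 3703 CPM in the same library, where the other stranded mRNA testes had 479.2 to 7808 CPM.

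Within a kit and batch the levels could be compared between BT groups. In batch 1, medium against low BT (7 against 7 stranded mRNA testes), ENSSSCG00000025162 had medians of 4970 and 3747 CPM and a log2 change of 0.37 (95% interval -0.44 to 1.19). The other 5 had log2 changes between -0.31 and -0.03, and between -0.30 and -0.01 without pig 8308, a fit chosen after seeing the data. Without sample quality weights, and with pig 8308, the changes of these 5 were -1.16 to -0.77, and 3 of them (ENSSSCG00000008552, ENSSSCG00000011995 and SPATC1) had an unadjusted limma p under 0.05. With edgeR and DESeq2 they were -0.68 to -0.40, with 2 members under 0.05 unadjusted in each. None of the 6 passed the adjusted threshold in any of these fits, and adjusted p was 0.273 to 0.959 in limma with quality weights. In that fit ENSSSCG00000011995 was the single member at an unadjusted p under 0.05, with a log2 change of -0.31 (SE 0.13, p = 0.0246). Over all 15365 genes limma called 0.0%, with 2366 at an unadjusted p under 0.05, whereas edgeR called 3172 and DESeq2 2320, none of them a member.

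In batch 2, high against medium BT (14 against 6 stranded mRNA testes), the medians of SPATC1 were 115.3 and 126.4 CPM and those of ENSSSCG00000025162 were 3993 and 5325 CPM. The log2 changes of the 6 lay between -0.23 and 0.14, and the 95% intervals all lay between -0.60 and 0.89. None passed the limma test (adjusted p = 1 for each) or had an unadjusted p under 0.05, neither group holding pig 8308, and 0.013% of all genes were called. Medium BT testes of batch 2 against batch 1 (6 against 7) gave a log2 change of 0.42 (SE 0.18) for SPATC1 and -0.54 (SE 0.42) for ENSSSCG00000025162. No member passed the limma test, with adjusted p from 0.369 to 0.898, and 0.0521% of all genes were called. SPATC1 had an unadjusted limma p of 0.0214. Without pig 8308 its log2 change was 0.41 (limma p = 0.0221), and ENSSSCG00000008552, with 0.31, also had an unadjusted limma p under 0.05 (p = 0.0495). Without quality weights, and with pig 8308, the 5 lower members had changes of 0.93 to 1.07, with the same 2 members under 0.05 unadjusted, and edgeR and DESeq2 gave 0.37 to 0.84.

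Within total RNA testes the medians by BT group were also close. ENSSSCG00000025162 had 77.5 CPM in low, 84.3 CPM in medium and 73.3 CPM in high BT. Its single libraries were far apart, at 37.8 to 269.4, 32.2 to 1982 and 35.7 to 110.8 CPM in these groups. SPATC1 had medians of 21.2, 22.0 and 22.1 CPM, and ENSSSCG00000029052 had medians of 20.7, 19.4 and 19.9 CPM. These groups held 8, 3 and 2 libraries and were not tested.

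When all 48 testes were set against each other without regard to kit, all 6 members came out higher in high than in low BT. This comparison shares its libraries with the rule and is a description of the members. ENSSSCG00000025162 had a log2 change of 3.84 (SE 0.66), and the other 5 had changes between 1.39 and 1.78. Of 15334 genes, 52.8% were called in either direction, 3271 lower and 4824 higher, or 3902 and 3486 with TMM factors. Total RNA libraries made up 9 of 16 low BT testes and 2 of 16 high BT testes. With kit as a covariate the changes were between -0.19 and 0.33, with batch as a covariate they were between -0.23 and 0.29, and no member was called in either. edgeR's quasi-likelihood test called none of the 6 without a covariate, with log2 changes of 0.41 to 1.00.

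A relation set ENSSSCG00000025162 apart within the stranded mRNA kit. Its log2 level fell as the share of uniquely aligned reads assigned to genes rose, with Pearson's r = -0.87 and Spearman's rho = -0.83 over 33 stranded mRNA testes without pig 8308 (permutation p = 1e-05 for each, the smallest that 100000 draws can give, adjusted p = 5e-05 over 10 relations computed). The value was r = -0.87 with pig 8308, r = -0.88 within batch 1 (n = 13) and r = -0.89 within batch 2 (n = 20). Without the 2 testes farthest from the median share it was r = -0.82. Pigs 9304 and 9328, the stranded mRNA testes lowest in this transcript, had shares of 74.3% and 74.7%. In 46 stranded mRNA livers the relation was r = -0.73 and rho = -0.74 (permutation p = 1e-05 for each, adjusted p = 5e-05), and r = -0.71 without the 2 farthest livers. In the 13 total RNA testes it was r = -0.06 and rho = -0.08 (permutation p = 0.864 and 0.809). The relation was looked for after the values had been seen, and level and share come from the same library. It was computed for the members only, so how many other genes share it is not given.

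The other 5 members gave r between 0.17 and 0.52 with the assigned share in the same 33 testes. ENSSSCG00000029052 was the highest with r = 0.52 (permutation p = 0.00222, adjusted p = 0.0074), but rho was 0.39 (adjusted p = 0.0887), and r was 0.18 in batch 1 and 0.60 in batch 2. With pig 8308 its r was 0.09 (permutation p = 0.595), and that of the 5 lay between -0.055 and 0.089, so the relation of ENSSSCG00000029052 does not hold with that library. Between testis and liver of the same pig, the levels of ENSSSCG00000025162 gave r = 0.04 (permutation p = 0.816) and rho = -0.11 (permutation p = 0.531) over 33 pigs with stranded mRNA libraries of both tissues.

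**Figure D3:**
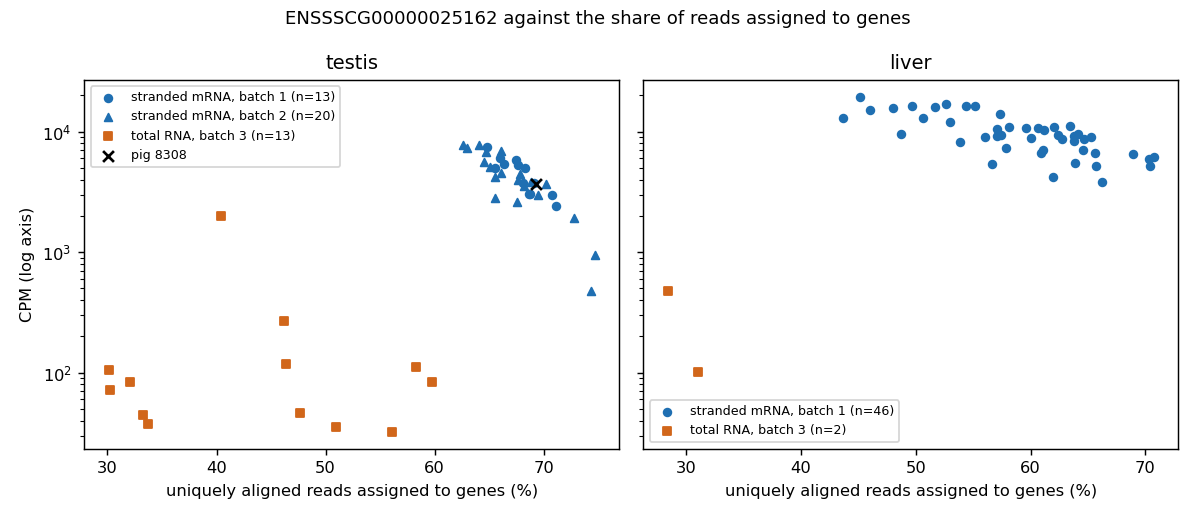
CPM of ENSSSCG00000025162 (log axis) against the percentage of uniquely aligned reads assigned to genes, in testis (left) and liver (right), one point per library, with colour for kit and shape for batch. Stranded mRNA libraries fall along a declining line in both tissues (r = -0.87 in testis and -0.73 in liver), and total RNA libraries lie apart from it, with r = -0.06 in testis.

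The genes whose log2 levels were most like those of each member were listed by Pearson's r over the 33 stranded mRNA testes, among 8488 other genes with a median of 10 CPM or more. This measure was chosen after the values had been seen and is a description, since the points share depth and composition. ENSSSCG00000029052 was closest to FSCN3, a testis fascin that bundles actin (r = 0.95), HSP70.2 (r = 0.93) and PRSS58 (r = 0.92). SPATC1 was closest to C11orf42 (r = 0.92), SPEM2 (r = 0.91) and SPATA3 (r = 0.91). ENSSSCG00000011995 was closest to RNF19A, a ubiquitin ligase (r = 0.85), PMFBP1, a protein of the sperm head and tail junction (r = 0.84), and PICALM, a clathrin adaptor (r = 0.84). ENSSSCG00000022704 had DCAF1, a ubiquitin ligase adaptor, as its closest gene (r = 0.84), and ENSSSCG00000008552 had ENSSSCG00000011608 (r = 0.85).

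ENSSSCG00000025162 was closest to ENSSSCG00000021356 both in testis (r = 0.93) and in 46 stranded mRNA livers (r = 0.90). The medians of that gene were 595.8 CPM in stranded mRNA and 405.6 CPM in total RNA testes, and its log2 change with the kit in high BT was -0.18 (limma adjusted p = 0.884). The next most alike over testes, ENSSSCG00000019556 (r = 0.83) and ENSSSCG00000018061 (r = 0.82), lie in the run of identifiers left out of the rule, and they were higher in total RNA, with log2 changes in high BT of 8.73 (limma adjusted p = 1.11e-21) and 4.15 (limma adjusted p = 9.55e-07). Among themselves the 5 lower members had r between -0.02 and 0.59 (median 0.41, 10 pairs) over stranded mRNA testes and between 0.50 and 0.90 (median 0.66) over total RNA testes. ENSSSCG00000025162 had negative r with each of them in both kits, between -0.51 and -0.15 and between -0.80 and -0.28.

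SPATC1 was on none of the gene lists used for this tissue, and the 5 members without a symbol could not be matched to them. Of 33 spermatid and sperm genes tested in high BT testes, 26 were lower in total RNA and none was higher by limma, with a median log2 change of -0.96 against -0.18 over all genes tested. The list held 40 symbols, of which 33 were matched in the name table, so a gene listed under another symbol would be missed. Among these 33, SPATA3 had the largest fall (-1.82, SE 0.25). ODF1, a protein of the outer dense fibres of the sperm tail (-1.62, SE 0.24), and ACRV1, an acrosomal protein (-1.56, SE 0.32), followed. Each of them fell less than any member. CIMAP1A, which was not among the 33, had a difference of medians of -1.92 in high BT. Genes for packaging proteins of sperm DNA did not pass the test, with log2 changes of -0.71 (SE 0.32) for PRM1, a protamine, and -0.32 (SE 0.36) for TNP1, a transition protein. With TMM factors 22 of the 33 were lower (median -0.77), and with edgeR 5 were (median -0.73). Of all 15365 genes tested, 2530 and 1508 were lower in these fits. All 6 members were called by both, but they had been chosen for a fall with the kit in low and medium BT. The list was not chosen by that rule, but it was chosen with earlier results of these data known. Its counts are therefore a description, and the members and the list are not a like comparison.

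Of 29 ribosomal protein genes, 10 were lower and none was higher by limma (median -0.38). With TMM factors 4 were lower (median -0.18), by edgeR 1 and by DESeq2 2. Among all 15365 genes tested, the lower calls were 3390 by limma, 2530 with TMM factors, 1508 by edgeR and 1955 by DESeq2. Of 46 genes of oxidative phosphorylation, some of them for assembly factors of complex I, 19 were lower and 2 higher (median -0.37). With TMM factors 7 were lower and 3 higher (median -0.17), by edgeR 4 were lower and 3 higher, and by DESeq2 6 and 3. Without pig 1331, 3 ribosomal protein genes and 7 of oxidative phosphorylation were lower, and without pig 1306 these were 12 and 15. Of 4 antioxidant and selenoprotein genes, 3 were lower (median -0.76), among them GPX4, a selenoprotein of the sperm midpiece (-1.34, SE 0.22). Of 7 histone genes, 1 was lower and 2 were higher (median 0.08). None of 8 steroidogenesis genes, the list of the Leydig cell pathway, was called in either direction (median 0.57).

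**Figure D4:**
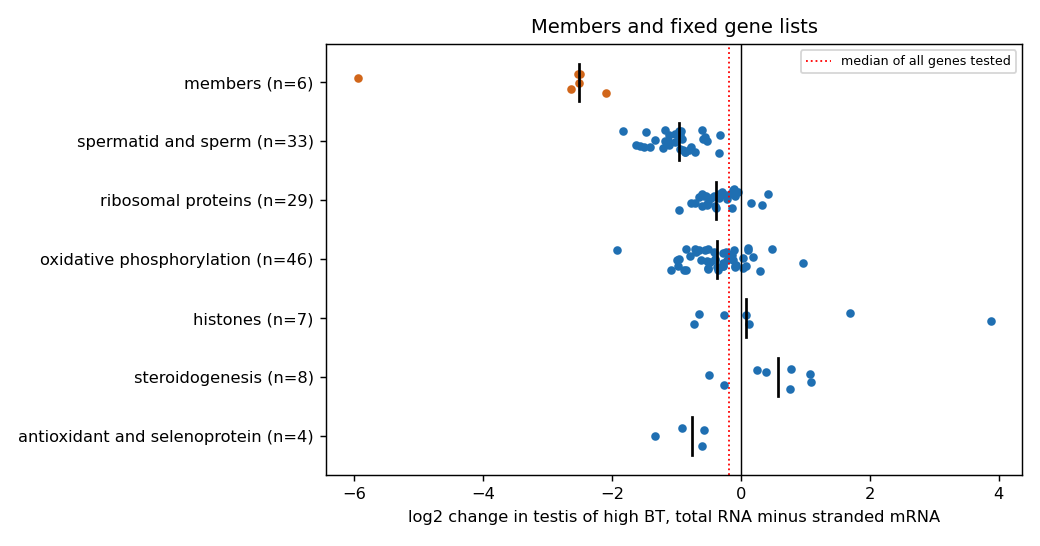
Limma log2 change between total RNA and stranded mRNA testes of high BT for the 6 members (orange) and for each gene tested on the 6 lists (blue), with list medians as black lines and the median of all 15365 genes tested as a red dotted line at -0.18. The members, with a median of -2.51, lie below the 33 spermatid and sperm genes, whose median is -0.96. The members were chosen for such a fall in low and medium BT, and the lists were chosen with earlier results of these data known.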

How the data were processed

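Whole-tissue RNA-Seq of 96 libraries was analysed. Per the submitters' processing notes and the study's methods, the authors trimmed reads with cutadapt 1.8.1 and Trimmomatic 0.33, aligned them with STAR to Sscrofa10.2, handled alignments with SAMtools 1.3.1 and deposited raw read counts per gene from HTSeq 0.6.0 with default settings. The version of STAR is not given in the sources used here. Default counting with a stranded kit depends on the strand setting, so overlapping antisense genes are uncertain, and reads with several alignments are not counted.

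Kit, tissue and BT group came from the labels, and batch from the submitters' file labels. Members and gene lists were chosen with earlier results of these data known. HTSeq category rows were left out of library sizes. Levels were CPM. Counts were normalised by voom with sample quality weights and tested in limma 3.58.1 (R 4.3.3), with genes of mean count above 5, 7 groups of merit, kit and batch over 47 testes, and Benjamini-Hochberg adjustment at 0.05. In liver the 2 total RNA libraries formed 1 group. Fits without quality weights, with TMM, without a minimum count, with at least 10 counts in every library, with edgeR 4.0.16 and with DESeq2 1.42.0 were alternatives, as were fits on only the libraries compared and without single libraries. Leaving out pig 8308, the skipped library or the most abundant member was chosen after seeing the data. Liver and testis with the same pig number came from the same animal, and a replicate block on pig was an alternative in the comparison of tissues. Scripts were tested on simulated data. p-values measure spread between pigs, some of them half-sibs. Members were named in full. The genes nearest the limit, those on the lists and those most like a member were named after their values had been seen, the list genes as the lowest log2 changes or as well-known ones. Symbols on the ribosomal protein list were matched by prefix, and 9 RPS6K kinases that the prefix also matched (1 lower and 3 higher in high BT) were left out after the values had been seen.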

Additional observations from a re-analysis of the deposited data

Results flagged for a closer look

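Levels of the 6 members were searched for a library far from the others of its group by Dixon's test in groups of 4 to 10 testes of one BT group, kit and batch. Of 24 combinations of member and group, 6 had such a library, at a nominal rate of about 1 in 20 for independent values. The combinations share libraries, and no share over all genes is given. No excess over chance can therefore be read from this count.

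The testis of pig 8308 (medium BT, stranded mRNA, batch 1, 7 testes) accounted for 4 of them, with ENSSSCG00000008552 at 4.58 CPM (others 111.5 to 142.2), ENSSSCG00000022704 at 0.780 CPM (others 93.6 to 157.3), ENSSSCG00000011995 at 1.66 CPM (others 81.9 to 109.3) and SPATC1 at 4.39 CPM (others 60.7 to 99.5). Germ cell markers were low and HBB was high in the same library, and their part was not tested. Pig 1314 had 269.4 CPM of ENSSSCG00000025162 where the other 7 total RNA testes of low BT had 37.8 to 118.1 CPM. Pig 8338 had 138.3 CPM of ENSSSCG00000011995 where the other 5 medium BT testes of batch 2 had 90.3 to 99.9 CPM.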

How the results depend on the processing

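The number of genes meeting the rule was 6, and it was 2 with TMM effective library sizes and 11 without the minimum CPM. Leaving out each total RNA testis of medium BT gave 3 to 8, with 3 without pig 2111. The counts of members called by kit (6 in high BT testis, or 5 of 5 where each library had to hold 10 reads of a gene, and 1 lower in liver), by tissue, by BT within a batch and by batch (0 in each) were the same under the alternatives run, while over all genes the calls lower in high BT were 3390 by limma, 1955 by DESeq2 and 1508 by edgeR. Calls between batches in medium BT were 8 by limma, 1049 by DESeq2 and 1889 by edgeR, and between high and medium BT they were 2 by limma, 0 by DESeq2 and 1 by edgeR. The exception to the member counts was liver without a minimum count, where 4 of 6 members were called. The median log2 change of the 6 was 0.87 in that fit. Members with at most 3 reads got fitted values there that were not used. The paired fit of the tissues with a replicate block on pig gave -0.52 for ENSSSCG00000025162 and left it uncalled.

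High against low BT over all testes called 6 members, and 0 with kit as a covariate (402 of all genes), 0 with batch as a covariate (68) and 0 by edgeR (5), where limma called 8095. With kit as a covariate the direction turned for ENSSSCG00000025162 (-0.037), ENSSSCG00000022704 (-0.035), ENSSSCG00000029052 (-0.081) and ENSSSCG00000011995 (-0.19). With batch it turned for ENSSSCG00000008552 (-0.16), ENSSSCG00000022704 (-0.088), ENSSSCG00000029052 (-0.23) and ENSSSCG00000011995 (-0.22). Between high and medium BT in batch 2, uncalled changes near 0 turned for ENSSSCG00000025162 (-0.096 by DESeq2, -0.089 by edgeR), SPATC1 (-0.089 and -0.074) and ENSSSCG00000008552 (-0.062 and -0.051, -0.014 with TMM, -0.0076 without a minimum count, -0.0006 with only the libraries compared, -0.030 without quality weights). The causes were not tested.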

Other observations

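The total RNA testis of pig 2111, highest of its kit in ENSSSCG00000025162 (1982 CPM), was at the low end for the other 5 members. It had the lowest level of ENSSSCG00000029052 (8.16 CPM) and ENSSSCG00000011995 (11.7 CPM) among the 13 total RNA testes, and 20.3 CPM of ENSSSCG00000008552, 20.9 CPM of ENSSSCG00000022704 and 17.4 CPM of SPATC1.

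Pigs 1306 and 3109 had total RNA libraries of both tissues. ENSSSCG00000025162 was at 101.2 CPM in liver and 110.8 CPM in testis of pig 1306, and at 480.7 CPM in liver and 83.2 CPM in testis of pig 3109, so the level was similar in the tissues of 1 pig and 5.78 times as high in liver in the other.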
